A study of Mus musculus with 12 samples.

Results

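The endothelin system was followed through 6 genes in the mouse retina: the ligand genes Edn1, Edn2 and Edn3, the receptor genes Ednra and Ednrb, and Ece1, which encodes the converting enzyme. They were taken by name as 6 of the 24340 rows of the deposited table, and all 6 were above 0 in at least 1 of the 12 libraries. After elevation of intraocular pressure (IOP), Edn2 rose in each of 6 mice, from 0.858 to 4.57 FPKM in control retinas to 33.1 to 82.6 FPKM in IOP-treated retinas. FPKM is the number of sequenced fragments per kilobase of exon, scaled to the size of the library, so levels of different genes can be set side by side per length. The remaining 5 genes passed the test in none of the comparisons when all libraries were used.

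Endothelins are short secreted peptides best known as strong constrictors of blood vessels. Each is cut from a larger precursor, first by furin-type proteases and then by the converting enzyme at the end of the mature peptide, and acts on the G protein-coupled receptors Ednra, found mainly on smooth muscle and pericytes, and Ednrb, found on endothelium and on glia. In the retina, endothelin 2 is known as a signal made by stressed photoreceptors that reaches Ednrb on Müller glia, endothelin 1 is made chiefly by endothelium and astrocytes, and endothelin 3 with Ednrb is best known for the development of pigment cells and enteric neurons.

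All 6 mice were 12 to 16 weeks old and carried p16-3MR, a transgene in which the regulatory region of p16Ink4a drives a fusion of luciferase, a red fluorescent protein and a viral thymidine kinase that turns ganciclovir (GCV) into a toxin. In every mouse IOP was held at 85 to 90 mm Hg for 60 min by saline infusion into one eye, and the other eye was the control. Mice 1, 2 and 5 then received GCV at 25 mg/kg by intraperitoneal injection on each of 3 days (control GCV and IOP GCV groups), and mice 3, 4 and 6 received no GCV (control and IOP groups). The paper names PBS or DMSO as the sham treatment of its control mice. Each of the 4 groups holds 3 retinas from separate mice, each IOP-treated retina has its partner from the same animal, and control retinas share the transgene and any injections with their partners. RNA came from whole retina, so fewer cells of a type and less RNA per cell cannot be told apart. The 10 Müller glia markers checked summed to 1990 to 3150 FPKM and the 8 retinal ganglion cell markers to 207 to 1780 FPKM, so that the libraries carried the retinal markers their label names.

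The table gives no counts, and the depth of the libraries was estimated at 3980000 to 9020000 fragments. Mouse 6 had the shallowest library in its IOP-treated eye, and that library also had 14844 rows above 0 against 16044 to 16593 in the other libraries. At these depths Ece1 rested on 149 to 399 estimated fragments per library, Ednrb on 47.1 to 260 and Edn2 on 8.4 to 852. Edn3 had 0 to 79.6, Edn1 0 to 15.4 and Ednra 0 to 11.8, so that differences in the last pair are poorly resolved.

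The 3 ligand genes each have 5 exons, and in each the 21 residues of the mature peptide are encoded by 63 bases within exon 2. On GRCm38, Edn1 lies at chr13:42301476-42307990, Edn2 at chr4:120161206-120167360 and Edn3 at chr2:174760619-174784042, all on the plus strand, and the mature peptides are encoded at chr13:42303649-42303711, chr4:120161951-120162013 and chr2:174761749-174761811. These stretches are shown because the response to IOP fell on 1 of the 3 ligand genes. They are written 5′ to 3′ from the GENCODE annotation, with capitals for the bases that differ from Edn2:
Edn1: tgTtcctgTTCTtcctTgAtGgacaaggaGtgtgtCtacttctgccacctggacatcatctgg
Edn2: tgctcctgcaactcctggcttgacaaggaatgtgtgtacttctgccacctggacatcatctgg
Edn3: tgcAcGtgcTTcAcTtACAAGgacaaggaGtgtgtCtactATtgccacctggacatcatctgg
Edn1 differs from Edn2 at 10 of the 63 bases and at 3 of the 21 residues, and Edn3 differs from Edn2 at 15 bases and 6 residues. Edn1 and Edn3 differ from each other at 13 bases and 6 residues. The last 21 bases are identical in the 3 genes.

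In control retinas without GCV, Edn2 stood at 3.23 FPKM in mouse 3, 2.75 in mouse 4 and 4.57 in mouse 6, and in their IOP-treated retinas at 82.6, 48.4 and 33.1 FPKM. The group means were 3.52 ± 0.946 and 54.7 ± 25.3 FPKM (SD, n = 3). All 3 IOP-treated values were above all 3 control values, as in 11.7% of all rows, and the rise was 25.6-fold in mouse 3, 17.6-fold in mouse 4 and 7.24-fold in mouse 6. With limma on log2(FPKM + 1), a scale that understates changes of low values, the log2 fold change was 3.55 (standard error 0.37, 95% interval 2.72 to 4.37, adjusted p = 0.0046).

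In mice with GCV, the control retinas held 0.858 FPKM of Edn2 in mouse 1, 3.02 in mouse 2 and 2.3 in mouse 5, and the IOP-treated retinas 34.0, 59.3 and 54.9 FPKM. The means were 2.06 ± 1.1 and 49.4 ± 13.5 FPKM (SD, n = 3), again without overlap, which held upwards for 14.5% of all rows. The ratio of the IOP-treated to the control value was 39.6 in mouse 1, where the control value was the lowest of all libraries, 19.6 in mouse 2 and 23.9 in mouse 5. The fitted log2 fold change was 4.08 (standard error 0.37, 95% interval 3.25 to 4.90, limma adjusted p = 0.00256). When the fit held the GCV groups alone, the adjusted p was 0.0795, in a fit that called 7 genes of the whole table.

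Over all mice the median of Edn2 was 2.88 FPKM in the 6 control retinas and 51.7 FPKM in the 6 IOP-treated retinas, and the ranges did not overlap. Such a separation upwards was seen for 5.47% of all rows. The log2 fold change over all mice was 3.81 (standard error 0.26, 95% interval 3.23 to 4.40, limma adjusted p = 0.000131). Within mice the difference ran from 2.61 in mouse 6 to 4.30 in mouse 3 on the log2 scale, higher in 6 of 6 pairs, and an exact two-sided sign-flip test gave p = 0.03125, the smallest that 6 pairs allow. Without the shallow IOP-treated library of mouse 6 the log2 fold change was 3.96 over all mice and 3.85 without GCV, and Edn2 was called in every fit that left out 1 library.

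**Figure D1:**
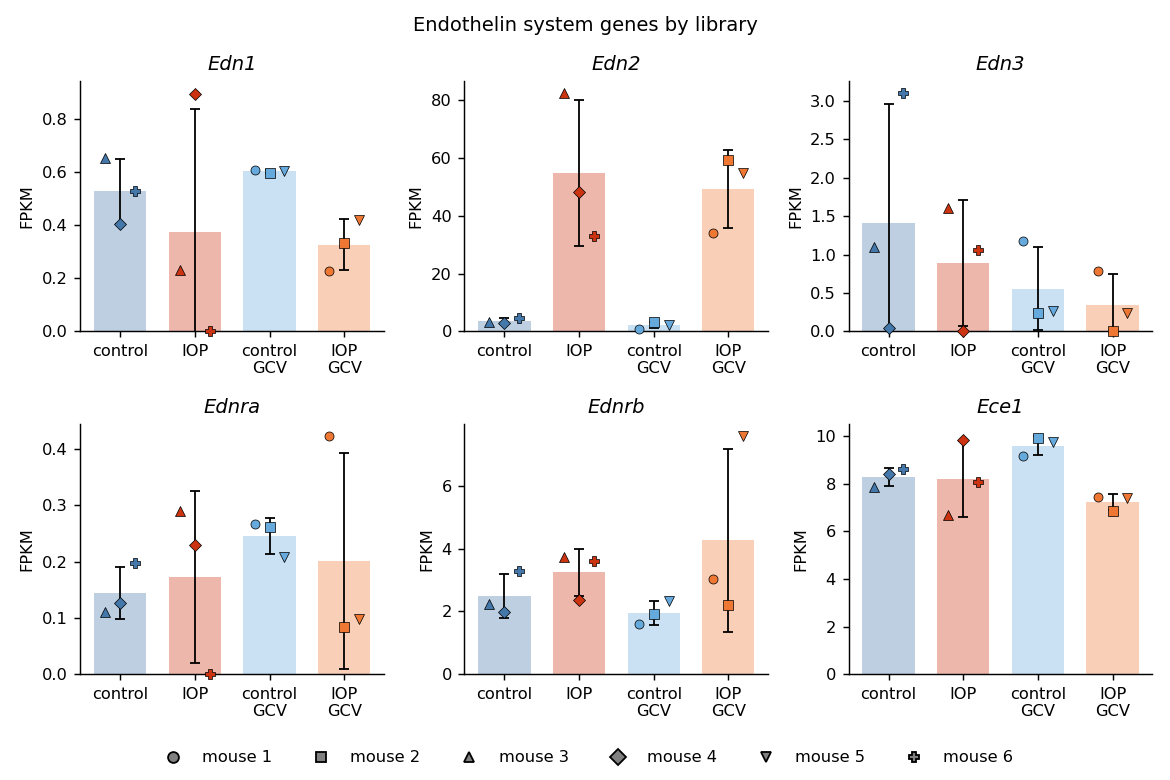
FPKM of the 6 endothelin system genes (y axes, linear, each panel with its own scale, from 0) in the 4 groups (x axes). Bars are group means, error bars SD (n = 3, cut off at 0) and symbols single retinas by mouse. Edn2 is the gene whose IOP-treated retinas (33.1 to 82.6 FPKM) all lie above the control retinas (0.858 to 4.57 FPKM).

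The summed level of the 3 ligands ran from 2.64 to 8.2 FPKM in control retinas and from 34.1 to 84.4 FPKM in IOP-treated ones. In control retinas Edn2 made up between 32.4% (mouse 1) and 86.1% (mouse 4) of this sum, with a median of 68.8%, beside 6.42% to 23.0% for Edn1 and 1.22% to 44.6% for Edn3. In IOP-treated retinas Edn2 made up 96.9% to 99.4% (median 98.0%).

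Of the 6 genes, Edn2 was the 1 called without GCV, where 1.65% of all 18509 rows tested were called and 1.42% were called higher. It was also the 1 called with GCV, where 1.8% of all rows were called and 1.65% higher, and the 1 called over all mice, where 12.2% were called and 6.76% higher. In each comparison a gene was called at a Benjamini-Hochberg adjusted p under 0.05. With the mouse as a block Edn2 was again called in all 3, where 0.405%, 0.778% and 7.3% of all rows were. At an unadjusted p under 0.05, Edn2 passed without GCV, as did 18.9% of all rows, and Edn2 and Ece1 passed with GCV, as did 19.2%.

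Edn1 was low throughout. Its control retinas held 0.65, 0.403 and 0.526 FPKM in mice 3, 4 and 6 and 0.608, 0.596 and 0.602 FPKM in mice 1, 2 and 5. The IOP-treated retinas held 0.231, 0.892 and 0 FPKM in mice 3, 4 and 6 and 0.225, 0.333 and 0.419 FPKM in mice 1, 2 and 5. The IOP-treated value was the lower of the pair in 5 of 6 mice, mouse 4 being the exception, and the groups overlapped. The log2 fold change over all mice was −0.24 (standard error 0.13, 95% interval −0.53 to 0.05, limma adjusted p = 0.257). Single libraries moved this value in both directions. When the IOP-treated library of mouse 4 was left out, it was −0.37 over all mice (adjusted p = 0.0076) and −0.46 without GCV (adjusted p = 0.0279), and Edn1 was then called, in fits that called 4515 and 2490 of all rows in place of 2258 and 306. When the IOP-treated library of mouse 6 was left out, it was −0.14 over all mice (adjusted p = 0.419) and 0.003 without GCV. With a pseudocount of 0.1 in place of 1 it was −0.85 over all mice and −0.95 without GCV, and it was not called. The IOP-treated library of mouse 4 had the highest summed level of 10 endothelial markers, 67.4 FPKM, and that of mouse 6, with Edn1 listed at 0, had the lowest, 20.2 FPKM. The other 10 libraries lay between 28.3 and 50.1 FPKM, no endothelial marker was at 0 in all libraries, and 0 of the 10 were called in any comparison, with at most 2 past an unadjusted p under 0.05. Among the other libraries, the IOP-treated retina of mouse 1 had a sum of 44.5 FPKM beside 0.225 FPKM of Edn1. The control retina of mouse 3 had a lower sum, 32.7 FPKM, beside 0.65 FPKM of Edn1. The part of endothelium in the Edn1 values was not tested.

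Edn3 values differed widely between mice. In control retinas it stood at 1.1, 0.039 and 3.1 FPKM in mice 3, 4 and 6 and at 1.18, 0.231 and 0.259 FPKM in mice 1, 2 and 5. In IOP-treated retinas it stood at 1.61, 0 and 1.06 FPKM in mice 3, 4 and 6 and at 0.784, 0 and 0.243 FPKM in mice 1, 2 and 5. The 3 mice with the highest control values, mice 1, 3 and 6, also had the 3 highest IOP-treated values, and control and IOP-treated retinas overlapped widely. The log2 fold change over all mice was −0.22 (95% interval −1.01 to 0.56, limma adjusted p = 0.711). The 10 markers of retinal pigment epithelium and melanocytes summed to 25.7 to 447 FPKM in control retinas and 60.4 to 464 FPKM in IOP-treated retinas, with none at 0 in all libraries, and in no comparison was 1 of the 10 called or more than 1 past an unadjusted p under 0.05. The 5 libraries with Edn3 above 1 FPKM had marker sums of 128 to 464 FPKM, and the 2 libraries with Edn3 listed at 0 had 60.4 and 87.0 FPKM, but the control retina of mouse 2 had a sum of 175 FPKM beside 0.231 FPKM of Edn3. The part of pigmented tissue in the Edn3 values was not tested.

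The receptor transcripts were mostly Ednrb, which made up 85.6% to 95.3% of the summed receptor FPKM in control retinas and 87.8% to 100% in IOP-treated ones. Ednrb lies at chr14:103814615-103844508 and Ednra at chr8:77663029-77724452 of GRCm38, both on the minus strand with 8 exons.

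Ednrb stood at 2.23, 1.97 and 3.28 FPKM in the control retinas of mice 3, 4 and 6, and at 3.72, 2.38 and 3.61 FPKM in their IOP-treated retinas. With GCV the control retinas of mice 1, 2 and 5 held 1.59, 1.93 and 2.34 FPKM and the IOP-treated retinas 3.03, 2.19 and 7.57 FPKM. The IOP-treated retina had the higher value in all 6 mice, but the ranges overlapped, and mouse 5 stood apart. The log2 fold change was 0.28 without GCV (adjusted p = 0.65), 0.71 with GCV (adjusted p = 0.278) and 0.49 over all mice (95% interval −0.03 to 1.01, adjusted p = 0.186) in limma. Differences within mice ran from 0.109 to 1.36 on the log2 scale, and the exact sign-flip test gave p = 0.03125, without adjustment for the 6 genes. A value higher in 6 of 6 pairs was found in 10.7% of all rows. Leaving out mouse 5's IOP-treated library gave log2 fold changes of 0.28 over all mice and 0.29 with GCV.

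That retina of mouse 5 also had the highest summed level of 10 microglia and macrophage markers, 2720 FPKM, where the other 5 IOP-treated retinas had 348 to 1310 FPKM and the control retinas 56.0 to 121 FPKM. Over all mice 8 of these 10 markers were called higher, where 6.76% of all rows were, and none was at 0 in all libraries. The 10 markers of Müller glia, which carry Ednrb, summed to 2290 to 2640 FPKM in control and 1990 to 3150 FPKM in IOP-treated retinas. Of these 10, 1 was called higher over all mice and 3 lower, where 6.76% and 5.44% of all rows were. With the mouse as a block 2 in all were called, where 7.3% of all rows were. The part of these cells in the Ednrb values was not tested.

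Ednra was the least abundant of the 6. It stood at 0.111, 0.126 and 0.198 FPKM in control and 0.29, 0.23 and 0 FPKM in IOP-treated retinas of mice 3, 4 and 6. With GCV it stood at 0.267, 0.261 and 0.209 FPKM in control and 0.423, 0.0836 and 0.0982 FPKM in IOP-treated retinas of mice 1, 2 and 5. The values went up in 3 mice and down in 3. The log2 fold change over all mice was −0.02 (95% interval −0.20 to 0.16, limma adjusted p = 0.904), at 0 to 11.8 fragments per library. The 10 markers of pericytes and smooth muscle, the cells best known for Ednra, summed to 13.2 to 24.5 FPKM in control and 15.6 to 84.9 FPKM in IOP-treated retinas, with none at 0 in all libraries and 0 called in any comparison (at most 1 past an unadjusted p under 0.05). Their part in the Ednra values was not tested.

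**Figure D2:**
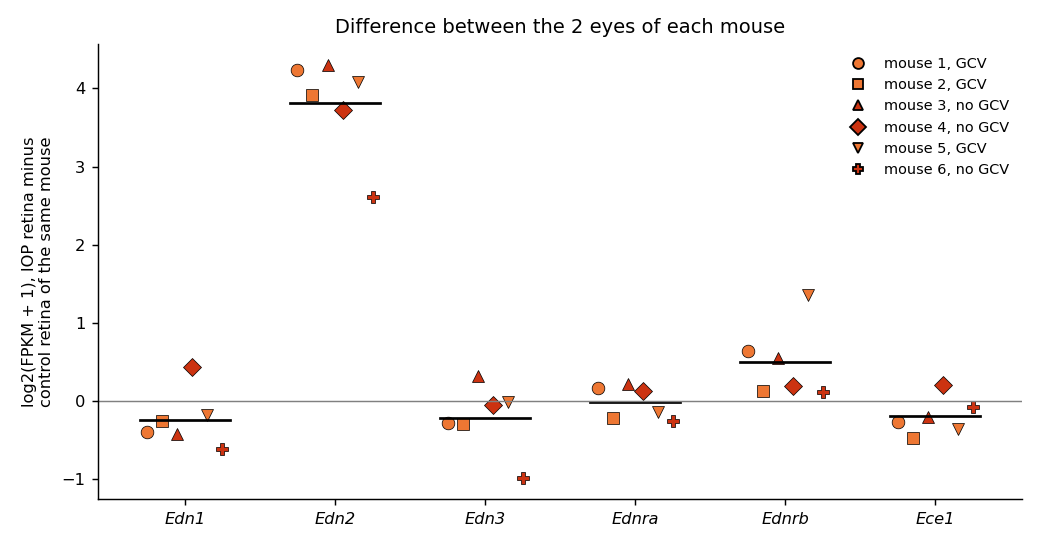
Difference between the IOP-treated and the control retina of the same mouse on the log2(FPKM + 1) scale (y axis) for the 6 genes (x axis). Symbols are mice, colours show GCV treatment and black lines the mean of 6 mice. Edn2 differed by 2.61 to 4.30 in all 6 mice and Ednrb by 0.109 to 1.36, while Edn1, Edn3, Ednra and Ece1 had pairs on both sides of 0.

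Ece1, the converting enzyme of the endothelins, lies at chr4:137862237-137965229 on the plus strand of GRCm38. It was the most abundant of the 6 genes in control retinas, with 7.88, 8.4 and 8.6 FPKM in mice 3, 4 and 6 and 9.16, 9.91 and 9.74 FPKM in mice 1, 2 and 5. In IOP-treated retinas it stood at 6.7, 9.85 and 8.06 FPKM without GCV and at 7.45, 6.84 and 7.39 FPKM with GCV. Without GCV the groups overlapped, and the log2 fold change was −0.03 (95% interval −0.32 to 0.26, limma adjusted p = 0.944).

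With GCV all 3 IOP-treated values of Ece1 were below all 3 control values, at means of 7.23 ± 0.332 against 9.6 ± 0.393 FPKM (SD, n = 3), a separation seen for 15.3% of all rows. The log2 fold change was −0.37 (standard error 0.13, 95% interval −0.66 to −0.07), and it did not pass the adjustment over all rows (limma adjusted p = 0.175). The effect with GCV minus that without was −0.34 (95% interval −0.75 to 0.07, adjusted p = 0.997), and over all mice the log2 fold change was −0.20 (adjusted p = 0.186). Leaving out the IOP-treated library of mouse 4, where Ece1 was highest among IOP-treated retinas, gave a value over all mice of −0.26 (adjusted p = 0.0424), at which Ece1 was called, in the fit that called 4515 of all rows.

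Ordered by FPKM in control retinas, Ece1 (7.88 to 9.91 FPKM) came first without overlap. Edn2 (0.858 to 4.57 FPKM), Ednrb (1.59 to 3.28 FPKM) and Edn3 (0.039 to 3.1 FPKM) could not be ranked against each other beyond their spread, and Ednra (0.111 to 0.267 FPKM) was below Edn1 (0.403 to 0.65 FPKM). The range of Edn3 also held those of Edn1 and Ednra. In IOP-treated retinas Edn2 came first at 33.1 to 82.6 FPKM, and Ece1 (6.7 to 9.85 FPKM) overlapped with Ednrb (2.19 to 7.57 FPKM).

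GCV was given to remove p16Ink4a-expressing cells, and mice with GCV were compared with other mice without it. Such removal, GCV itself and differences between the animals cannot be told apart in this comparison. None of the 6 was called for the difference between the IOP effects or for GCV in control or in IOP-treated retinas, and limma called 0% of all rows in each of these comparisons. At an unadjusted p under 0.05 there were 358 rows for the difference (1.93%), 774 for GCV in IOP-treated retinas (4.18%) and 295 for GCV in control retinas (1.59%), and none of the 6 genes was among them. For Edn2 the effect with GCV minus that without was 0.53 on the log2 scale, with a 95% interval of −0.64 to 1.70 that still allows a sizeable difference in either direction. The GCV effect on Edn2 was −0.08 (95% interval −0.91 to 0.74) in IOP-treated retinas and −0.62 (95% interval −1.44 to 0.21) in control retinas. For Ednrb the difference between the IOP effects was 0.42 (95% interval −0.62 to 1.47).

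**Figure D3:**
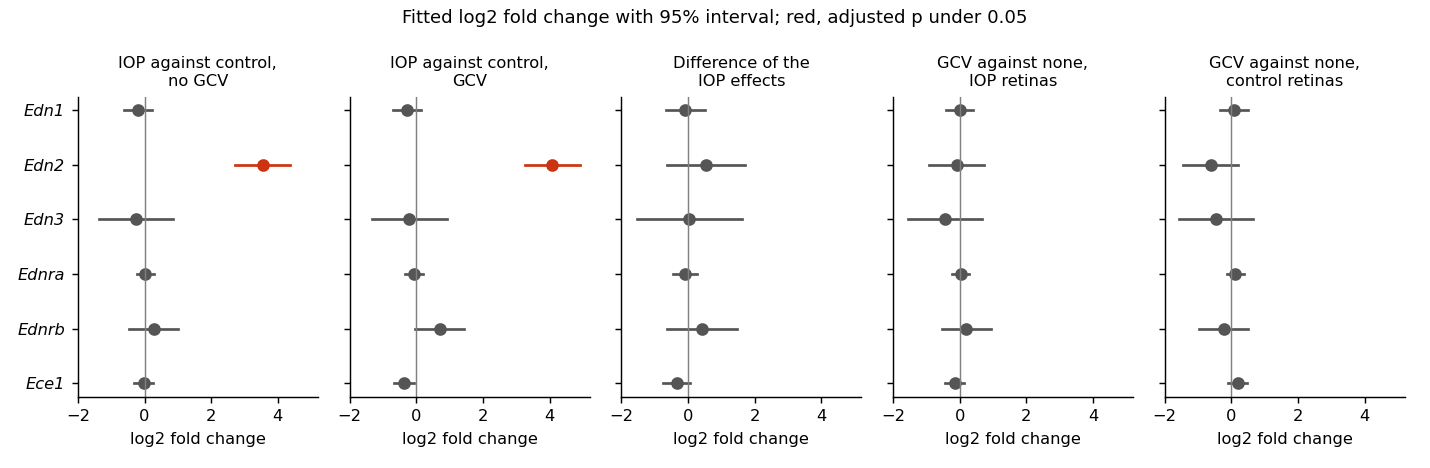
Fitted log2 fold changes (x axes, log2 of FPKM + 1) of the 6 genes (y axis) in 5 comparisons, with points for the estimate, lines for the 95% interval and red for an adjusted p under 0.05. Edn2 is called for IOP without GCV (3.55) and with GCV (4.08), and every interval in the 3 panels on GCV includes 0.

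Enzymes that cut or destroy endothelins or their precursors, and relatives of these such as Ecel1, which is named for its likeness to the converting enzymes and is not established as cutting endothelins, were taken as a list of 10, of which Kel was at 0 in all libraries and 9 were tested. Over all mice 3 were called higher, 1 lower and 5 were not called, where 6.76% of all rows were called higher and 5.44% lower, and the median log2 fold change was 0.09 beside 0.01 for all rows. Ecel1, a neuronal endopeptidase of the same family as Ece1 that is known to be induced by nerve injury, rose from a median of 0.154 FPKM (range 0 to 0.203) in control retinas to 5.9 FPKM (2.1 to 7.13) in IOP-treated retinas. Its ranges did not overlap, and its log2 fold change was 2.36 (standard error 0.21, limma adjusted p = 0.000317). Ctsa, a lysosomal carboxypeptidase that can inactivate endothelin 1, rose from 42.2 (38.8 to 48.0) to 71.4 FPKM (53.9 to 99.0), with a log2 fold change of 0.75 (limma adjusted p = 0.0159).

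Ece2, the second converting enzyme, fell from 11.4 FPKM (9.47 to 14.2) to 5.82 FPKM (1.34 to 9.12), a log2 fold change of −1.05 (limma adjusted p = 0.046, and 0.0543 with the mouse as a block). Furin, which makes the first cut in the precursors, was higher by 0.27 on the log2 scale (limma adjusted p = 0.048, and 0.127 with the mouse as a block). Within each treatment 1 of the 9 was called, where 1.65% of all rows were without GCV and 1.8% with GCV, and it was Ecel1 both without GCV (log2 fold change 2.03, limma adjusted p = 0.0125) and with GCV (2.70, adjusted p = 0.00368). Ece1 and Ece2 were thus measured at 7.88 to 9.91 and 9.47 to 14.2 FPKM in control retinas, against at most 0.203 FPKM for Ecel1.

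Downstream of the receptors, 24 genes for G proteins, phospholipases, calcium channels, protein kinases and arrestins were tested. Over all mice 1 was called higher, 2 lower and 21 were not called, and the median log2 fold change was −0.01. The 3 calls of 24 are near the 12.2% of all rows called. Without GCV 1 of the 24 was called, where 1.65% of all rows were, and 0 with the mouse as a block. With GCV 0 were called, where 1.8% of all rows were. Rock2, a kinase of the contractile arm, rose from a median of 16.2 FPKM (14.9 to 16.5) to 27.0 FPKM (20.9 to 37.5), with a log2 fold change of 0.76 (limma adjusted p = 0.00757). Plcb1, a phospholipase C that neurons also use, fell from 4.03 FPKM (3.18 to 5.4) to 1.17 FPKM (0.581 to 3.12), with a log2 fold change of −1.19 (limma adjusted p = 0.0107). Gnai1, an inhibitory G protein subunit, fell by 1.13 on the log2 scale (limma adjusted p = 0.0465, and 0.0526 with the mouse as a block). In neither receptor signalling nor ligand processing did limma call any gene for GCV or for the difference between the IOP effects. An unadjusted p under 0.05 was passed by 1 gene of each list, both for GCV in IOP-treated retinas, where 4.18% of all rows passed.

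The 8 markers of retinal ganglion cells, neurons that also express many signalling genes, summed to 872 to 1780 FPKM in control and 207 to 965 FPKM in IOP-treated retinas. Over all mice 7 of 8 were called lower, where 5.44% of all rows were, or 1 of 8 with the mouse as a block, where 7.3% of all rows were called. The IOP-treated retina of mouse 4 stood apart, with a marker sum of 965 FPKM inside the control range and the smallest falls of Plcb1 (−0.212 on the log2 scale), Gnai1 (−0.225) and Ece2 (−0.263) of the 6 mice. In the other mice the falls reached −1.81, −1.82 and −2.16. The part of ganglion cells in the falls of Plcb1, Gnai1 and Ece2 was not tested.

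Endothelin 2 and the cytokine Lif are known to act in a chain in the injured retina, in which photoreceptors and Müller glia exchange signals and the glia turn on Stat3, Gfap and Fgf2. Of 10 genes of this response, 7 were called higher over all mice, 1 lower and 2 were not called, where 6.76% of all rows were called higher and 5.44% lower, and the median log2 fold change was 1.27. The list was chosen with earlier results of these data known, so its counts describe it and do not test the chain. Cebpd, a transcription factor of the acute response, rose from a median of 3.39 FPKM (2.78 to 4.21) to 45.1 FPKM (17.3 to 57.9), with a log2 fold change of 3.23 (standard error 0.22, limma adjusted p = 0.000131). Stat3, the transcription factor activated by Lif, rose from 11.5 (9.91 to 14.8) to 43.9 FPKM (33.2 to 52.1), with a log2 fold change of 1.77 (limma adjusted p = 0.000106). Socs3, a feedback inhibitor of that pathway, rose from 1.82 (1.48 to 3.27) to 17.6 FPKM (12.5 to 45.1), with a log2 fold change of 2.79 (limma adjusted p = 0.000417). Fgf2, a survival factor for photoreceptors, rose from 3.14 (1.24 to 5.21) to 31.9 FPKM (14.8 to 57.3), with a log2 fold change of 2.99 (limma adjusted p = 0.000833). For all 4 genes the control and IOP-treated ranges did not overlap.

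Gfap, the filament protein of reactive glia, Il6st, the shared receptor subunit, and Lif itself were the other three called higher. Lif was at 0.0285 to 0.113 FPKM in control and 0.393 to 1.95 FPKM in IOP-treated retinas, so that Edn2 was measured at a far higher level than Lif in every IOP-treated retina. Jak1, a kinase of the pathway, was lower by a log2 fold change of −0.24 (limma adjusted p = 0.0243, and 0.0604 with the mouse as a block), and Lifr and Jak2 were not called. Without GCV 6 of the 10 were called higher, where 1.42% of all rows were, and 3 with the mouse as a block, where 0.405% of all rows were called. With GCV 5 were called higher with and without the block, where 0.778% of all rows were called with it and 1.65% called higher without it. None was called for the difference between the IOP effects in limma, and 0 passed an unadjusted p under 0.05. Beside this list, 5 astrocyte markers, of which Gfap is also in the list, summed to 30.6 to 63.5 FPKM in control and 97.3 to 236 FPKM in IOP-treated retinas. Gfap alone held 9.62 to 33.3 FPKM of this in control and 79.5 to 220 FPKM in IOP-treated retinas. The median log2 fold change of the 5 over all mice was −0.21, with 2 called higher, 1 lower and none at 0 in all libraries. Of all rows 6.76% were called higher and 5.44% lower. The 10 microglia and macrophage markers summed to 56.0 to 121 and 348 to 2720 FPKM in the same groups. The part of these cells in the rise was not tested.

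**Figure D4:**
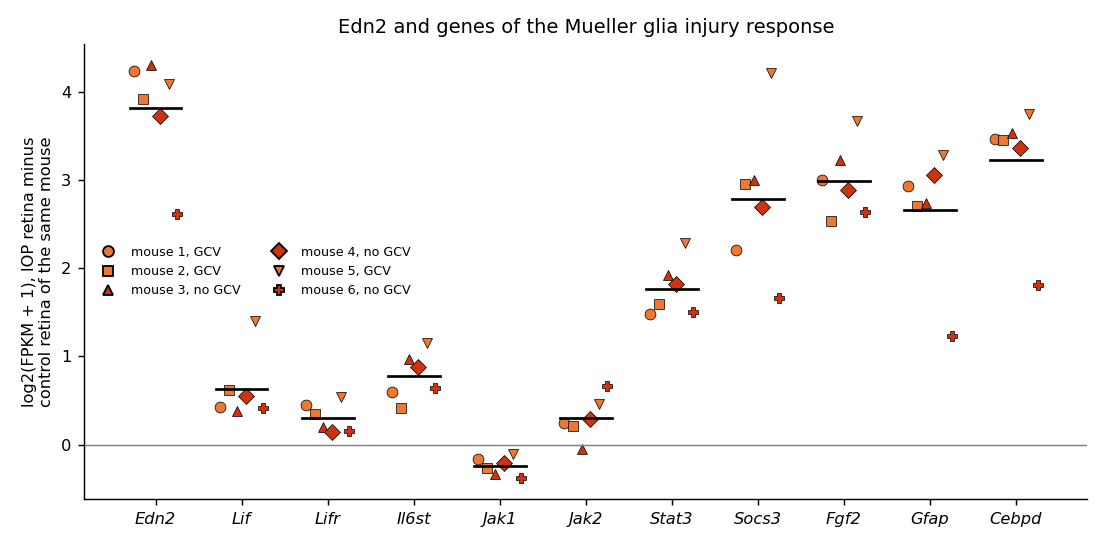
Difference between the IOP-treated and the control retina of the same mouse on the log2(FPKM + 1) scale (y axis) for Edn2 and 10 genes of the Müller glia injury response (x axis). Symbols are mice, colours show GCV treatment and black lines the mean of 6 mice. For Edn2, Gfap, Cebpd and Socs3 the smallest difference was that of mouse 6 (2.61, 1.23, 1.81 and 1.66).

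Of 15 genes listed as inducers of endothelin transcription in general, Gata4 was at 0 in all libraries and 14 were tested. The list is not specific to Edn2, and the part of its genes in the rise of Edn2 was not tested. Over all mice 5 were called higher, where 6.76% of all rows were, 0 lower and 9 were not called, and the median log2 fold change was 0.41. This list too was chosen with earlier results of these data known, so its counts are a description. Within each treatment 1 of the 14 was called, where 1.65% of all rows were without GCV and 1.8% with GCV, and with the mouse as a block 0 were called without GCV and 1 with GCV. Junb, a subunit of the AP-1 transcription factor, rose from a median of 7.42 FPKM (4.59 to 8.26) to 30.3 FPKM (at least 19.3), with a log2 fold change of 2.06 (limma adjusted p = 0.000833). Jun, its partner, rose from 15.0 (12.2 to 15.7) to 27.9 FPKM (20.0 to 44.0), with a log2 fold change of 0.93 (limma adjusted p = 0.00877). The cytokine genes Tgfb1 and Il1b rose with log2 fold changes of 1.83 (limma adjusted p = 0.0118) and 2.55 (limma adjusted p = 0.0137). Both were highest in the IOP-treated retina of mouse 5, at 20.0 and 40.3 FPKM, the library with the highest microglia and macrophage markers, and the part of those cells in the rise was not tested. Fos was the other gene called higher. The hypoxia factor Hif1a, named after its values were seen, stood at 198 to 228 FPKM in control retinas and 212 to 250 FPKM in 5 IOP-treated retinas, with 406 FPKM in mouse 6 (log2 fold change 0.24, limma adjusted p = 0.265).

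The 250 bases before the start of Edn2, chr4:120160956-120161205 on the plus strand of GRCm38 from RefSeq, are shown because Edn2 was the member that rose:
Edn2 promoter: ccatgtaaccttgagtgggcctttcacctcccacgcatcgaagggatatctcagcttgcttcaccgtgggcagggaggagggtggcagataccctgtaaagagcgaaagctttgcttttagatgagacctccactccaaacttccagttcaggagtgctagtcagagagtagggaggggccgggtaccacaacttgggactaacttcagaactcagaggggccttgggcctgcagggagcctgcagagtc
Both strands of this window and of the 50 bases after the start were searched for 5 short motifs, none of which contains another, beside the same 300-base windows of 32851 promoters. The letters TGANTCA stood for AP-1 and were in 7.81% of all promoters. The STAT motif was written as TTCNNNGAA and was found in 8.3%. For C/EBP the search used TTGCNNAA, present in 10.8% of promoters. The GATA motif, AGATAA, was in 11.2% of them. The core of the hypoxia response element, ACGTG, was in 19.6%. None was found in the Edn2 window, which says no more than that these letters are not in it. Edn1 had a match to GATA at base 9 and to the hypoxia core at base 22 after its start, Ece1 had 2 matches to the hypoxia core, and Edn3, Ednra and Ednrb had none.

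Across the 12 libraries, the genes with levels most like those of Edn2 among the 12906 genes whose mean was 1 FPKM or more were Ifi27l2a (Pearson r = 0.980 on the log2 scale), Jak3 (0.979) and Isg15 (0.979), and 186 genes reached r of 0.9. These 12 points fall into control and IOP-treated retinas, and with the group means removed r was 0.832, 0.831 and 0.510. Nearest to Ednrb were F13a1 (0.961), Dennd1b (0.957) and Rab8b (0.956), with 67 genes at 0.9 or more and r of 0.962, 0.948 and 0.954 within groups. Nearest to Ece1 were Mast4 (0.947), Ajap1 (0.936) and Dnm1l (0.932), with 23 genes at 0.9 or more. Edn3 was nearest to Slc4a5 (0.906), Pmel (0.881), which is also 1 of the pigment markers above, and Timp3 (0.877). For Edn1 the nearest were Poglut1 (0.90), L3mbtl3 (0.898) and Igdcc4 (0.885), and for Ednra Ergic1 (0.874), Hhatl (0.818) and Agk (0.811), at levels of few fragments. The points share their library, depth and mouse, so these values describe likeness in these 12 libraries.

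**Figure D5:**
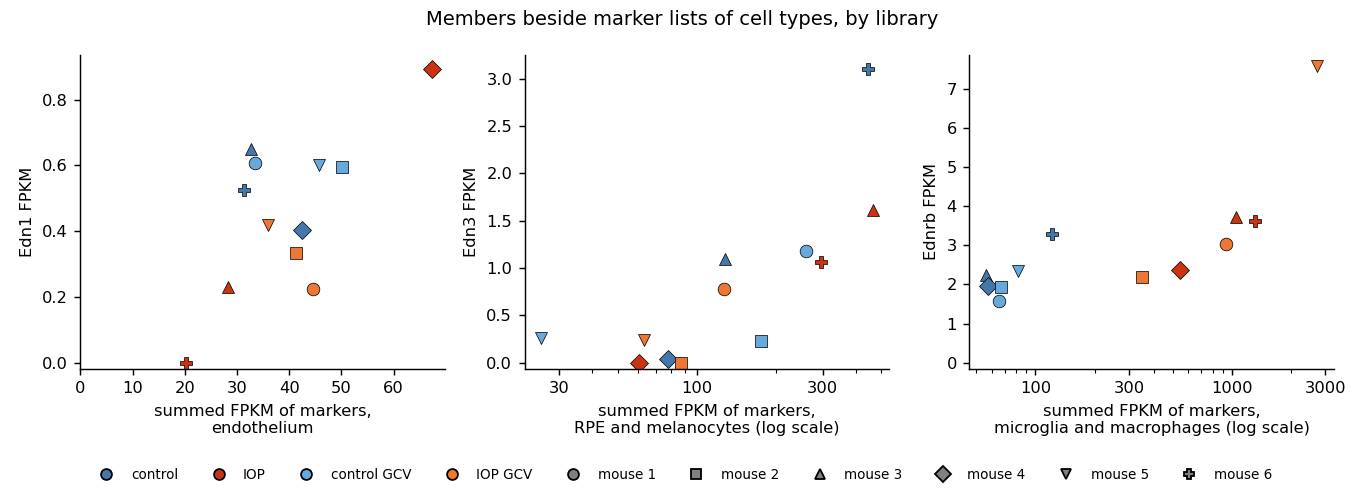
FPKM of Edn1, Edn3 and Ednrb (y axes, linear) against the summed FPKM of 10 markers of endothelium (linear x axis), of retinal pigment epithelium (RPE) and melanocytes, and of microglia and macrophages (log x axes), 1 symbol for each of the 12 libraries, by group and mouse. Edn1 is highest and listed at 0 where endothelial markers are highest (67.4) and lowest (20.2). Between these, it is 0.225 FPKM at a sum of 44.5 (IOP-treated, mouse 1) and 0.65 FPKM at 32.7 (control, mouse 3). Ednrb is highest (7.57 FPKM) where microglia and macrophage markers are highest (2720).

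The 10 lens markers summed to 6.48 to 126 FPKM in 5 control retinas and 6850 FPKM in the control retina of mouse 1, where Edn2 had its lowest value. In IOP-treated retinas they summed to 101 to 6430 FPKM, and none was at 0 in all libraries. Over all mice 7 of 10 were called higher, where 6.76% of all rows were, and 0 were called within either treatment. Past an unadjusted p under 0.05 there were 8 without GCV and 4 with GCV, where 18.9% and 19.2% of all rows passed. Without the control library of mouse 1 the log2 fold change of Edn2 was 3.75 with GCV (limma adjusted p = 0.0236) and 3.65 over all mice. Among IOP-treated retinas the highest Edn2 value (82.6 FPKM, mouse 3) was in the library with the lowest lens sum (101 FPKM). The part of lens tissue in the Edn2 values was not tested.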

How the data were processed

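RNA-seq libraries (stranded, poly(A)-selected, paired reads) were made from 12 retinas of 6 mice. Per the methods, the authors counted reads over exons of RefSeq genes with HOMER, and the submitters' processing notes name TopHat2, Bowtie2, Cufflinks, Cuffdiff and mm10, with no role or version. The deposited table holds FPKM values. This unit was inferred, since low values times transcript length were multiples of 1 number per library. Depth was estimated from 1567 single-transcript genes of at least 1500 bases (160 bases subtracted), of whose low values 78.1% to 85.2% lay within 0.15 of whole fragments. No counting intervals were computed from these estimates.

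Values were fitted as log2(FPKM + 1) with limma 3.58.1 (R 4.3.3), with 1 mean per group, a variance trend and Benjamini-Hochberg adjustment over 18509 rows above 0 in at least 1 library. Contrasts were IOP against control without GCV, with GCV and over all mice, their difference, and GCV against none in each eye. Pairs were tested with exact sign-flip tests. The calling was tested on simulated data. Libraries labelled with one mouse number are eyes of the same animal. The deviations of such pairs from their group means correlated at −0.117, 0.132, 0.207, 0.388, 0.166 and 0.1 for mice 1 to 6, over 12910 genes.

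The genes and lists were chosen with earlier results of these data known. Named were all 6 genes, up to 4 called genes of each pathway list with the smallest p over all mice, the 2 most abundant where fewer than 2 were called, and the 3 genes most like each member. Other genes named were chosen after their values were seen. One marker list is not reported here because it holds a withheld item. Alternatives were a pseudocount of 0.1, rows of at least 1 FPKM in 3 libraries, fits without the other groups, a mouse block, no trend, 2 other scalings, a looser adjusted p of 0.1 and each library left out. Gene coordinates and promoters are from RefSeq on GRCm38, which is the build named mm10. Exons, strands, coding sequences and the coordinates of the mature peptides are from GENCODE annotation of the same build. Tables and figures were made in Python 3.11.15 (matplotlib 3.10.9, numpy 2.4.6, pandas 2.3.3).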

Additional observations from a re-analysis of the deposited data

How the results depend on the processing

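Edn2 was called for IOP without GCV and over all mice in every alternative tried, with log2 fold changes of 3.51 to 3.85 and 3.79 to 4.25, and in every fit that left out 1 library (3.20 to 3.85 and 3.64 to 3.96). With GCV it was 4.06 to 4.64, and 3.75 to 4.32 with 1 library left out, and it missed the threshold in the fit of the GCV groups alone, where 0 of the 6 genes and 7 rows of the table were called. With 1 library left out, 1 to 2 of the 6 genes were called without GCV and 1 to 3 over all mice, the higher numbers when mouse 4's IOP-treated library was left out, which also gave the highest counts over all rows, 2490 and 4515. The fit that kept rows of at least 1 FPKM in 3 libraries held no Edn1 or Ednra. With the mouse as a block, the adjusted p of Edn2 was 0.0283 without GCV, 0.0214 with GCV and 0.00328 over all mice, and pairing changed no call among the 6 genes. The rows called fell from 306 to 75 without GCV, from 334 to 144 with GCV and from 2258 to 1351 over all mice. They were 464 and 535 with a pseudocount of 0.1 without and with GCV, 185 and 7 in fits of the groups compared, and 607, 780 and 4131 at an adjusted p under 0.1 without GCV, with GCV and over all mice. GCV in control retinas had 1 row with a pseudocount of 0.1 and 4 in the fit of the groups compared. With 1 library left out the rows called for IOP were 23 to 2490 without GCV, 77 to 716 with GCV and 830 to 4515 over all mice. They were 0 to 2 for the difference between the IOP effects and 0 to 4 for GCV in IOP-treated retinas, both highest without mouse 1's IOP-treated library, and 0 to 3 for GCV in control retinas, highest without mouse 4's control library.

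With a pseudocount of 0.1 the values over all mice grew without a call to −0.85 for Edn1, −0.62 for Edn3 and −0.21 for Ednra. Directions that turned all belonged to values that were not called, and the cause was not tested. With a pseudocount of 0.1 the difference between the IOP effects was 0.20 for Edn1 and −0.30 for Edn3, GCV in IOP-treated retinas was 0.38 for Edn1, and IOP without GCV was −0.0476 for Ednra. With quantile normalization the difference was −0.0701 for Edn3, GCV in IOP-treated retinas 0.0256 for Edn1, and IOP without GCV −0.0323 for Ednra. With 1 library left out, IOP without GCV was −0.15 to 0.0945 for Ece1, −0.46 to 0.00302 for Edn1, −0.74 to 0.25 for Edn3 and −0.0452 to 0.14 for Ednra. IOP with GCV was −0.43 to 0.0671 for Edn3 and −0.19 to 0.00495 for Ednra, and over all mice −0.47 to 0.0232 and −0.082 to 0.0374. The difference between the IOP effects was −0.28 to 0.18 for Edn1 and −0.45 to 0.54 for Edn3. GCV in IOP-treated retinas was −0.21 to 0.25 for Edn1, −0.39 to 0.26 for Edn2, −0.0965 to 0.10 for Ednra and −0.23 to 0.49 for Ednrb, and GCV in control retinas was −0.97 to 0.023 for Edn3. Edn1 and Ednra rested on at most 15.4 and 11.8 estimated fragments per library, which limits their precision.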

Other observations

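Other systems that set vessel tone were described by a list of 25 names, of which 23 were in the table and 22 were tested, with Agtr1b at 0 in all libraries. Over all mice 2 were called higher, 3 lower and 17 were not called, where 6.76% of all rows were called higher and 5.44% lower, and the median log2 fold change was −0.13. Ptgs1, the cyclooxygenase of prostaglandin synthesis, rose from a median of 0.306 FPKM (0.0982 to 0.636) to 1.31 FPKM (1.08 to 4.05), with a log2 fold change of 1.00 (limma adjusted p = 0.0151). Tbxas1, which makes the constrictor thromboxane, rose from 0.371 (0.142 to 1.01) to 4.08 FPKM (1.2 to 9.06), with a log2 fold change of 1.63 (limma adjusted p = 0.0181). Ptgis, which makes the dilator prostacyclin, fell from 1.03 (0.762 to 1.64) to 0.435 FPKM (0 to 0.715), with a log2 fold change of −0.58 (limma adjusted p = 0.0233). Gucy1b3, a subunit of the nitric oxide receptor, fell from 46.0 (34.7 to 51.5) to 20.9 FPKM (9.64 to 37.7), with a log2 fold change of −1.08 (limma adjusted p = 0.0371). The fifth called gene, Nos1, the nitric oxide synthase of neurons, fell as well (adjusted p = 0.0465 in limma, and 0.087 with the mouse as a block). None of the 22 was called within the mice with GCV or without GCV, or for the difference between the IOP effects, and at an unadjusted p under 0.05 there were 4 of 22 without GCV and 9 of 22 with GCV, where 18.9% and 19.2% of all rows passed, and 0 for the difference. Ptgs1 and Tbxas1 are also transcribed in microglia and macrophages, whose 10 markers were at 56.0 to 121 FPKM in control and 348 to 2720 FPKM in IOP-treated retinas, and their part was not tested. The 8 markers of retinal ganglion cells summed to 872 to 1780 FPKM in control and 207 to 965 FPKM in IOP-treated retinas. Over all mice 7 of the 8 were called lower, where 5.44% of all rows were, and 1 of the 8 with the mouse as a block, where 7.3% of all rows were called. The sum of 965 FPKM was that of mouse 4, in which Gucy1b3 had its smallest fall (−0.186 on the log2 scale) and Nos1 was higher by 0.18 in the IOP-treated retina. The part of these neurons in the falls was not tested.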
